A study of Mus musculus with 15 samples.

Results

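The comparison described here is that of XPO4 overexpression against empty vector in the presence of TGFβ, in JS1 cells. JS1 is a mouse hepatic stellate cell line, derived from a TLR4-/- animal and carrying WT TLR4, and every library of the study shares this background. The XPO4 cells were transduced to overexpress XPO4 and treated with TGFβ (4 libraries), and the EV cells carried the empty vector and received the same treatment (4 libraries). These 8 libraries are 8 of 15 in the study; the other 7, without TGFβ (3 XPO4 and 4 EV), serve only for the comparison of effects near the end. The dose and duration of TGFβ, the species of the XPO4 construct and whether libraries of 1 group came from separate cultures are not in the labels, so the p-values rest on a spread among libraries that could be technical in origin. Levels are FPKM, fragments per length of transcript and per total of mapped fragments. Of 38277 genes in the table, 11976 averaged 1 FPKM or more across these 8 libraries and were tested on the log2(FPKM + 1) scale, on which all changes are given as XPO4 minus EV.

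Exportin-4 is a nuclear transport receptor. It carries the translation factor eIF5A and the TGFβ signalling protein SMAD3 out of the nucleus, and has also been described as an importer of some SOX transcription factors. Hepatic stellate cells are the pericytes of the liver sinusoid; TGFβ is the main cytokine that turns them into matrix-producing, contractile myofibroblasts. Type I interferons act through the receptor IFNAR and a transcription factor complex that contains STAT2 and IRF9 and binds interferon-stimulated response elements in the promoters of antiviral genes.

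XPO4 cells with TGFβ carried a broad and tightly replicated rise of interferon-stimulated genes and falls in fewer genes, among them Acta2, Tagln, Evpl, Col6a1 and Col6a2. A gene was called where its adjusted p was under 0.05, and a call was held where each of the 8 fits that left out 1 library made it too. With all libraries, 346 genes were called higher (2.89% of those tested) and 102 lower (0.852%). Held calls numbered 258 higher (2.15%) and 40 lower (0.334%), and "rose" and "fell" are used here of held calls only. Leaving out 1 library gave 282 to 332 calls higher. The calls lower depended more on single libraries. They numbered 63, 68, 91 and 59 without XPO4 libraries 0 to 3, and 61, 55, 67 and 53 without EV libraries 0 to 3. Of the calls, 77.2% were higher on the deposited scale and 66.7% after every library was rescaled to the same FPKM total, which moved the median change of all genes to -0.056.

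The rises were larger than the falls. Among called genes, 191 were over 2-fold higher and 55 over 4-fold higher, while 11 were over 2-fold lower. The median change was 1.12 for genes called higher and -0.58 for genes called lower, against -0.005 over all tested genes. Genes called higher took 8.71% to 9.04% of all FPKM in XPO4 libraries and 3.88% to 4.23% in EV libraries. Genes called lower took 1.38% to 1.42% in XPO4 libraries and 2.01% to 2.09% in EV libraries. The share of genes called higher grew with expression, at 1.65% of genes with a mean of 1 to 5 FPKM and 7.45% of genes with a mean of 100 FPKM or more, while the median standard error shrank from 0.21 to 0.10 on the log2 scale. Of the genes called higher, 37 had an EV mean under 1 FPKM and passed the filter through their XPO4 level, and 5 genes called lower passed through their EV level alone. The filter could admit such genes only in the direction they moved, so counts of list members that include them are in part set by it.

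**Figure D1:**
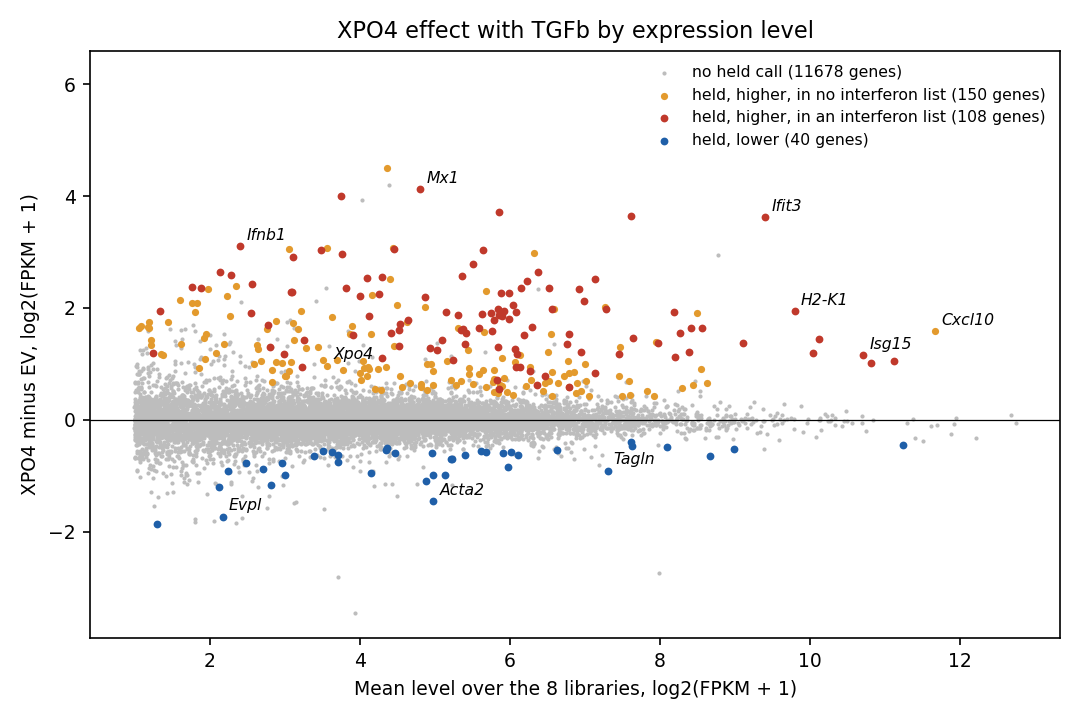
Change (XPO4 minus EV, log2(FPKM + 1) scale, vertical axis) against mean level over the 8 libraries (horizontal axis) for the 11976 tested genes, with held calls coloured by direction and by membership of an interferon list. The 108 rises in interferon lists reach from about 1 to over 10 on the level axis, and the median held change is 1.33 for the rises and -0.64 for the 40 falls.

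The libraries separated by group: the first principal component held 30.1% of the variance and placed the XPO4 libraries at -20.3 to -19.8 and the EV libraries at 18 to 21.4. FPKM summed to between 480030 and 525975 per library, and 11845 to 11971 genes reached 1 FPKM. Sequencing depth is unknown, since the files hold no counts. Stellate markers were present, with Vim at 2086 to 2927 FPKM in XPO4 libraries and 2221 to 2856 FPKM in EV libraries, but desmin (Des) was low, at 0.712 to 1.94 FPKM in XPO4 libraries and 0.915 to 2.35 FPKM in EV libraries. Hepatocyte markers summed to at most 0.464 FPKM in XPO4 libraries and 0.315 FPKM in EV libraries, and 8 of 10 were listed at 0 in all 8. Lymphocyte markers likewise had 8 of 10 at 0, and summed to at most 0.371 FPKM in XPO4 libraries and 0.308 FPKM in EV libraries. Of 10 macrophage markers, Adgre1, Clec4f, Marco and Timd4 were listed at 0 throughout; the list summed to 25.6 to 32.6 FPKM in XPO4 libraries and 30.8 to 33.8 FPKM in EV libraries, most of it Cd14, with no member called. Cholangiocyte markers summed to 360 to 427 FPKM in XPO4 libraries and 452 to 521 FPKM in EV libraries, nearly all of it Spp1, while Epcam was listed at 0.

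Xpo4 itself (chr14:57577521-57665430 of GRCm38, minus strand) had 15.02, 12.8, 16.2 and 14.5 FPKM in XPO4 cells, against 4.56, 7.16, 8.84 and 8.04 FPKM in EV cells. Every XPO4 library lay above every EV library. The change was 0.97 (SE 0.17, adjusted p = 0.0105), and an exact two-sided permutation test gave p = 0.0286, the smallest that 70 arrangements of 4 against 4 allow. Of 29 other export and import receptors and 24 nucleoporins tested, 0 were called by limma, with 4 and 0 at an unadjusted p under 0.05. Of the known cargo, Eif5a averaged 1117 ± 97.9 FPKM in XPO4 cells and 1121 ± 47.8 FPKM in EV cells (SD, n = 4 each), a change of -0.01 (SE 0.08, adjusted p = 0.987). Smad3 averaged 18.6 ± 2.07 FPKM in XPO4 cells and 23.3 ± 2.26 FPKM in EV cells, and its change of -0.31 (SE 0.11) did not pass (adjusted p = 0.202). Eif5a2 averaged 6.49 FPKM in XPO4 cells and 7.34 FPKM in EV cells, with overlapping libraries (adjusted p = 0.798). In bulk RNA, fewer cells expressing a gene and less RNA of it per cell cannot be told apart, for these genes and all that follow.

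Of the interferons themselves, 2 rose. Both passed the filter through their XPO4 level, with EV means of 0.083 FPKM for Ifnb1 and 0 FPKM for Ifna4. Each could therefore be tested only as higher. Ifnb1 (chr4:88522025-88522774), which encodes interferon beta, had 7.74, 7.56, 6.53 and 12.2 FPKM in XPO4 cells and was listed at 0 in 3 EV libraries and at 0.334 FPKM in the other. Its fitted change of 3.11 (SE 0.21, adjusted p = 9.26e-06) depends on the pseudocount. Ifna4, an interferon alpha gene, had 1.43, 3.20, 4.997 and 2.56 FPKM in XPO4 cells and was listed at 0 in all EV libraries (adjusted p = 0.0022). A listed 0 may be a failed estimate in files of this kind: mt-Atp8, a mitochondrial messenger RNA that every cell uses, was listed at 0 in 6 of the 8 libraries. The receptor genes Ifnar1, Ifnar2, Ifngr1, Ifngr2 and Il10rb changed by between -0.36 and 0.19 and none was called. The 7 other interferon and receptor genes of the list, Ifng among them, were under the filter.

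Genes that detect viral nucleic acid rose in part. Of 20 sensors and adaptors tested, 8 rose and 0 fell, beside a median change of 0.70. Zbp1, a sensor of Z-form nucleic acid, had 121, 124, 129 and 128 FPKM in XPO4 cells, against 25.4, 15.9, 27.6 and 19.7 FPKM in EV cells (change 2.48, SE 0.15, adjusted p = 3.94e-06). Tlr3, the endosomal receptor for double-stranded RNA, had 51.8, 36.6, 60.5 and 40.02 FPKM in XPO4 cells, against 7.78, 10.3, 11.5 and 8.09 FPKM in EV cells (change 2.20, SE 0.18, adjusted p = 3.01e-05). Dhx58 (LGP2), Ddx58 (RIG-I) and Ifih1 (MDA5), the cytosolic RNA helicases of this system, changed by 1.98, 0.94 and 1.07. Samhd1, a dNTP hydrolase that restricts viral DNA synthesis, averaged 98.6 ± 3.91 FPKM in XPO4 cells and 53.04 ± 2.40 FPKM in EV cells (change 0.88, SE 0.07, adjusted p = 3.16e-05). The kinases and adaptors downstream were not called: Tbk1 changed by 0.26, Ikbke by 0.12 and Ticam1 by -0.25. Tlr4, which the cells carry as a restored gene, had 14.4, 7.14, 11.7 and 11.8 FPKM in XPO4 cells, against 6.23, 10.6, 9.73 and 8.81 FPKM in EV cells, and these overlapped (adjusted p = 0.615).

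Of 16 interferon regulatory and STAT factors tested, 5 rose and 0 fell. Irf7, the factor that amplifies interferon alpha production, had 456, 473, 436 and 478 FPKM in XPO4 cells, against 118, 107, 138 and 124 FPKM in EV cells (change 1.92, SE 0.08, adjusted p = 6.81e-07). Stat2 averaged 107 ± 5.45 FPKM in XPO4 cells and 36.8 ± 2.68 FPKM in EV cells (change 1.52, adjusted p = 1.46e-06), while Irf9 changed by 0.71 and Irf1 by 0.95. Stat3, Stat5b, Jak1 and Tyk2, the parts of this signalling shared with other cytokines, changed by 0.05, -0.01, 0.04 and -0.01, and none was called. Of 8 feedback inhibitors tested, 4 rose. Usp18, which removes ISG15 and dampens IFNAR signalling, had 86.5, 97.7, 85.0 and 89.6 FPKM in XPO4 cells, against 28.1, 19.3, 27.1 and 20.8 FPKM in EV cells (change 1.88, SE 0.13, adjusted p = 8.52e-06). Socs1, an inhibitor of JAK kinases, had 25, 29.6, 20.02 and 27.6 FPKM in XPO4 cells, against 15.8, 13.6, 8.88 and 8.18 FPKM in EV cells (change 1.11, SE 0.20, adjusted p = 0.0123). The groups did not overlap for either gene. Ifi35, a partner of NMI, averaged 154.4 ± 12.5 FPKM in XPO4 cells and 59.96 ± 0.769 FPKM in EV cells (change 1.35).

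Most of the antiviral effectors rose. Of 31 Ifit, Oas, Mx and related genes tested, 28 rose and 1 fell, beside a median change of 1.65. Mx1 (chr16:97447035-97462907), a GTPase that blocks viral ribonucleoproteins, had 45.9, 48.8, 53.9 and 58.1 FPKM in XPO4 cells, against 1.47, 3.60, 2.54 and 0.994 FPKM in EV cells (change 4.13, SE 0.23, adjusted p = 2.4e-06). Its paralog Mx2, annotated as a polymorphic pseudogene, averaged 32.6 ± 3.23 FPKM in XPO4 cells and 4.70 ± 0.302 FPKM in EV cells (change 2.56). Ifit3, which stabilises the complex of IFIT proteins on viral RNA caps, had 1209, 1284, 1230 and 1283 FPKM in XPO4 cells, against 94.9, 99.6, 115 and 93.5 FPKM in EV cells (change 3.63, SE 0.08, adjusted p = 9.92e-09). The XPO4 libraries of Ifit3 agreed within a narrow band, and the lowest of them stood far above the highest EV library. The neighbouring near-identical copy Ifit3b, deposited under the name I830012O16Rik, changed by 3.64, and the authors' counting could split reads between them. Rsad2 (viperin), which makes a chain-terminating nucleotide, and Cmpk2, its neighbouring nucleotide kinase, changed by 2.51 and 2.36, while Bst2 (tetherin), which holds budding virions on the cell, changed by 1.45. All 6 Oas genes of 1 cluster on chromosome 5 rose by between 0.94 and 2.53. The family includes synthases of the 2-5A messenger of antiviral RNA decay, but not every member need be one, and Oas1b is annotated as a polymorphic pseudogene. The fall was Ifi27, deposited as Ifi27l1, with 14.5, 27.5, 16.5 and 14.2 FPKM in XPO4 cells, against 47.3, 39.03, 34.4 and 33.8 FPKM in EV cells (change -1.09, SE 0.20, adjusted p = 0.0118).

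The promoters of rising genes were searched for 1 short element. The core of the interferon-stimulated response element, GAAA followed by 2 free letters and GAAA again, was searched on both strands (TTTC, 2 free letters and TTTC on the other) in the 250 bases upstream of each RefSeq start, with overlapping matches kept. The promoters of 4 rising genes of different roles, chosen because each holds a match, are shown 5′ to 3′ on the strand of the gene, from the RefSeq table of GRCm38.p6, with matches in capitals: Ifit3 at chr19:34583279-34583528 (plus strand), the ubiquitin-like Isg15 at chr4:156200819-156201068 (minus strand), the DNA-binding Ifi206 at chr1:173491319-173491568 (minus strand) and the chemokine Cxcl10 at chr5:92348890-92349139 (minus strand).
Ifit3: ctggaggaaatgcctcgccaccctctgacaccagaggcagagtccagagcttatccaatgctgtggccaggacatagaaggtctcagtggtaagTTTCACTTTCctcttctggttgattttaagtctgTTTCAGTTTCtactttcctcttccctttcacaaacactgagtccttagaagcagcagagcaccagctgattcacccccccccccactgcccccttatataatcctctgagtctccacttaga
Isg15: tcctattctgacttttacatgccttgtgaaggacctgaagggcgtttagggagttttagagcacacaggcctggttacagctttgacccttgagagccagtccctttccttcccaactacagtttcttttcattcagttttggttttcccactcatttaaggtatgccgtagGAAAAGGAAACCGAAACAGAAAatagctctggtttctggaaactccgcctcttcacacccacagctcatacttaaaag
Ifi206: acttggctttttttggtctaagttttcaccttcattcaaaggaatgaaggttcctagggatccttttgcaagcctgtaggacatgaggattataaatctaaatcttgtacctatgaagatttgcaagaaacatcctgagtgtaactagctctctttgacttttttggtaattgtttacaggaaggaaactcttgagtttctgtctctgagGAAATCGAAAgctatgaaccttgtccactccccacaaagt
Cxcl10: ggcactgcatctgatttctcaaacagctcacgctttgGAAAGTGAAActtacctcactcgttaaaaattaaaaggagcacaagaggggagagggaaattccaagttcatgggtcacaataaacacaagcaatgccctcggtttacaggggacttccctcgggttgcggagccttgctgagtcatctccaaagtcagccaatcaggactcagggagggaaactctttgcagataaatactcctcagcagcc
Ifit3 held 2 matches, the nearer starting 122 bases before the gene's start; Isg15 held 3 that overlap in 1 block from 78 bases before it; Ifi206 held 1, 40 bases before it, and Cxcl10 held 1, 213 bases before it. The window of Ifnb1, which also rose, held 0. Promoters were found for 193 of the 258 genes that rose, and 56 of them (29.0%) held the core. The share was 46.0% among the 87 rising genes of the interferon lists with a promoter, 15.1% among the 106 other rising genes, and 3.31% among the 8911 tested genes with a promoter. None of 67 genes called lower, and none of the 26 with a held fall, had these letters in this window.

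The ISG15 system, which couples a ubiquitin-like protein to targets, rose in all 6 members tested. Isg15 (chr4:156199424-156200818) had 2064, 2750, 1965 and 2491 FPKM in XPO4 cells, against 1148, 1052, 945 and 976 FPKM in EV cells (change 1.16, SE 0.12, adjusted p = 0.000166). Uba7, its activating enzyme, averaged 25.3 ± 3.62 FPKM in XPO4 cells and 4.71 ± 0.894 FPKM in EV cells (change 2.21). Ube2l6, its conjugating enzyme, averaged 292 ± 12 FPKM in XPO4 cells and 106 ± 6.20 FPKM in EV cells (change 1.46). Isg15 had the highest level of the 6 and a change under the list's median of 1.38.

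Interferon-inducible GTPases that attack the vacuoles of intracellular pathogens rose in all 13 members tested, by between 1.18 and 3.72 (median 2.13). Iigp1 had 104, 87.5, 141 and 93.0 FPKM in XPO4 cells, against 7.003, 5.18, 10.6 and 6.23 FPKM in EV cells (change 3.72, SE 0.20, adjusted p = 1.94e-06). Igtp averaged 206 ± 12.5 FPKM in XPO4 cells and 46.5 ± 3.51 FPKM in EV cells (change 2.13), and Irgm1 averaged 361 ± 20.2 FPKM in XPO4 cells and 139 ± 4.51 FPKM in EV cells (change 1.37). The near-identical pair Tgtp1 and Tgtp2, whose reads may be split, changed by 3.05 and 3.03. A further 5 guanylate-binding protein genes of the list were under the filter. The largest held rise of all, named after its value was seen, was Gm12250 on chromosome 11, annotated as a processed pseudogene. It had 38.2, 35.4, 40.9 and 38.7 FPKM in XPO4 cells, against 0.538, 1.08, 0.861 and 0.470 FPKM in EV cells (change 4.51, SE 0.13, adjusted p = 6.76e-08). With an EV mean of 0.738 FPKM, Gm12250 passed the filter through its XPO4 level.

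The HIN-200 family, which encodes pyrin and HIN domain proteins that bind DNA in nucleus and cytosol, rose in 10 of 11 members tested (median change 2.29). Of these, Ifi206, Ifi208 and Ifi213 had EV means of 0.631, 0.200 and 0.0916 FPKM and passed the filter through their XPO4 level. They could be tested only as higher, so the count and median are in part set by the filter. Ifi206, deposited as Gm4955, had 26.1, 19.5, 27.4 and 24.1 FPKM in XPO4 cells, against 0.185, 0.782, 1.40 and 0.159 FPKM in EV cells (change 4.01, SE 0.24, adjusted p = 3.41e-06). Ifi209 (deposited as Pyhin1) averaged 19.0 ± 3.37 FPKM in XPO4 cells and 1.41 ± 0.160 FPKM in EV cells (change 3.04), and Ifi207 (AI607873) averaged 23.1 ± 5.16 FPKM in XPO4 cells and 2.07 ± 0.339 FPKM in EV cells (change 2.96). Mndal, expressed more in EV cells than these, averaged 61.3 ± 6.12 FPKM in XPO4 cells and 15.9 ± 1.05 FPKM in EV cells (change 1.88). The exception was Aim2, the DNA sensor that assembles an inflammasome, at 0.18 and not called. In the Schlafen family of growth-regulating RNA-binding proteins, 3 of 5 tested members rose: Slfn2, Slfn4 and Slfn8 changed by 2.05, 2.91 and 2.57. Members of both families are close paralogs, so their separate values are uncertain.

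Of 13 genes for ADP-ribosyltransferases and the partner ligase Dtx3l tested, 8 rose. Parp12, a zinc-finger enzyme with antiviral activity, had 161.6, 164.7, 172 and 153.2 FPKM in XPO4 cells, against 55.6, 54.8, 61.8 and 51.7 FPKM in EV cells (change 1.53, SE 0.08, adjusted p = 1.21e-06). Parp11, Parp14 and Parp10, which add single ADP-ribose units, changed by 1.78, 1.63 and 1.26, whereas Parp1, the DNA-damage enzyme, changed by -0.05. Of 17 TRIM ubiquitin ligases with antiviral roles tested, 8 rose. Trim21, a cytosolic antibody receptor, averaged 33.6 ± 2.07 FPKM in XPO4 cells and 10.5 ± 1.35 FPKM in EV cells (change 1.6, adjusted p = 7.64e-06). Trim30a, Trim30d and Trim34a, neighbours on chromosome 7, changed by 1.66, 1.71 and 1.32, and Trim28, a corepressor, changed by 0.15 and was not called.

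Many genes of antigen presentation by MHC class I rose. Of 19 class I and peptide-loading genes, 14 rose (median change 1.51). H2-K1 (chr17:33996017-34000347), a classical class I heavy chain, had 1367, 1553, 1233 and 1479 FPKM in XPO4 cells, against 393, 323, 380 and 366 FPKM in EV cells (change 1.94, SE 0.09, adjusted p = 8.74e-07). B2m, its light chain, had 2236, 2319, 2651 and 2346 FPKM in XPO4 cells, against 1248, 993, 1409 and 1106 FPKM in EV cells (change 1.02, SE 0.11, adjusted p = 0.000309). Among the nonclassical genes, H2-T23 averaged 78.8 ± 7.002 FPKM in XPO4 cells and 10.6 ± 1.41 FPKM in EV cells (change 2.78), and H2-Q4 and H2-T22 changed by 2.33 and 1.99. Class I genes are close paralogs, and reads may be split among them. The peptide transporter genes Tap1 and Tap2 changed by 1.78 and 1.51, the class I transactivator Nlrc5 by 1.56, and the general chaperones Calr and Pdia3, at 0.09 and 0.36, were not called. Of the 5 immunoproteasome genes, 3 rose. Psmb9, a catalytic subunit, had 21.8, 21.3, 19.4 and 27.7 FPKM in XPO4 cells, against 2.27, 5.16, 4.98 and 2.51 FPKM in EV cells (change 2.36), and Psme1, an activator subunit, changed by 1.6. Psmb8 was low, at 1.62 to 2.81 FPKM in XPO4 cells and 0.109 to 0.667 FPKM in EV cells (adjusted p = 0.0104). Of the 24 genes of the constitutive proteasome and the 2 MHC class II genes tested (H2-DMa and H2-DMb1), 0 were called by limma, with 1 of each at an unadjusted p under 0.05; the class II transactivator Ciita was under the filter.

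Of the 15 largest rises with an established symbol, 3 were in no list. Ly6a, the surface protein Sca-1, had 114, 123, 164.9 and 165.9 FPKM in XPO4 cells, against 18.1, 13.7, 17.6 and 17.6 FPKM in EV cells (change 2.99, SE 0.14, adjusted p = 8.74e-07). Mpeg1 encodes the bactericidal pore former perforin-2, which macrophages also express. It had 13.1, 10.1, 18.8 and 13.4 FPKM in XPO4 cells, against 0.653, 0.740, 1.15 and 0.533 FPKM in EV cells (change 3.05). Of the 10 macrophage markers, 4 were listed at 0 in all 8 libraries and 4 were tested, of which 0 were called. The cell source of the Mpeg1 RNA was not tested. Ms4a4d, a membrane protein, averaged 37.9 ± 7.76 FPKM in XPO4 cells and 3.66 ± 1.01 FPKM in EV cells (change 3.07).

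Taking the 14 interferon lists together, 168 of 204 genes passed the filter, 12 of them with an EV mean under 1 FPKM. Of the 168, 108 rose and 1 fell, beside 2.15% and 0.334% of all tested genes, and the median change was 1.31. The lists held 41.9% of the 258 rises and 1.40% of tested genes, and 122 rises were in no list at all. These lists were chosen with earlier results of these data known, so the counts describe them and do not test them.

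**Figure D2:**
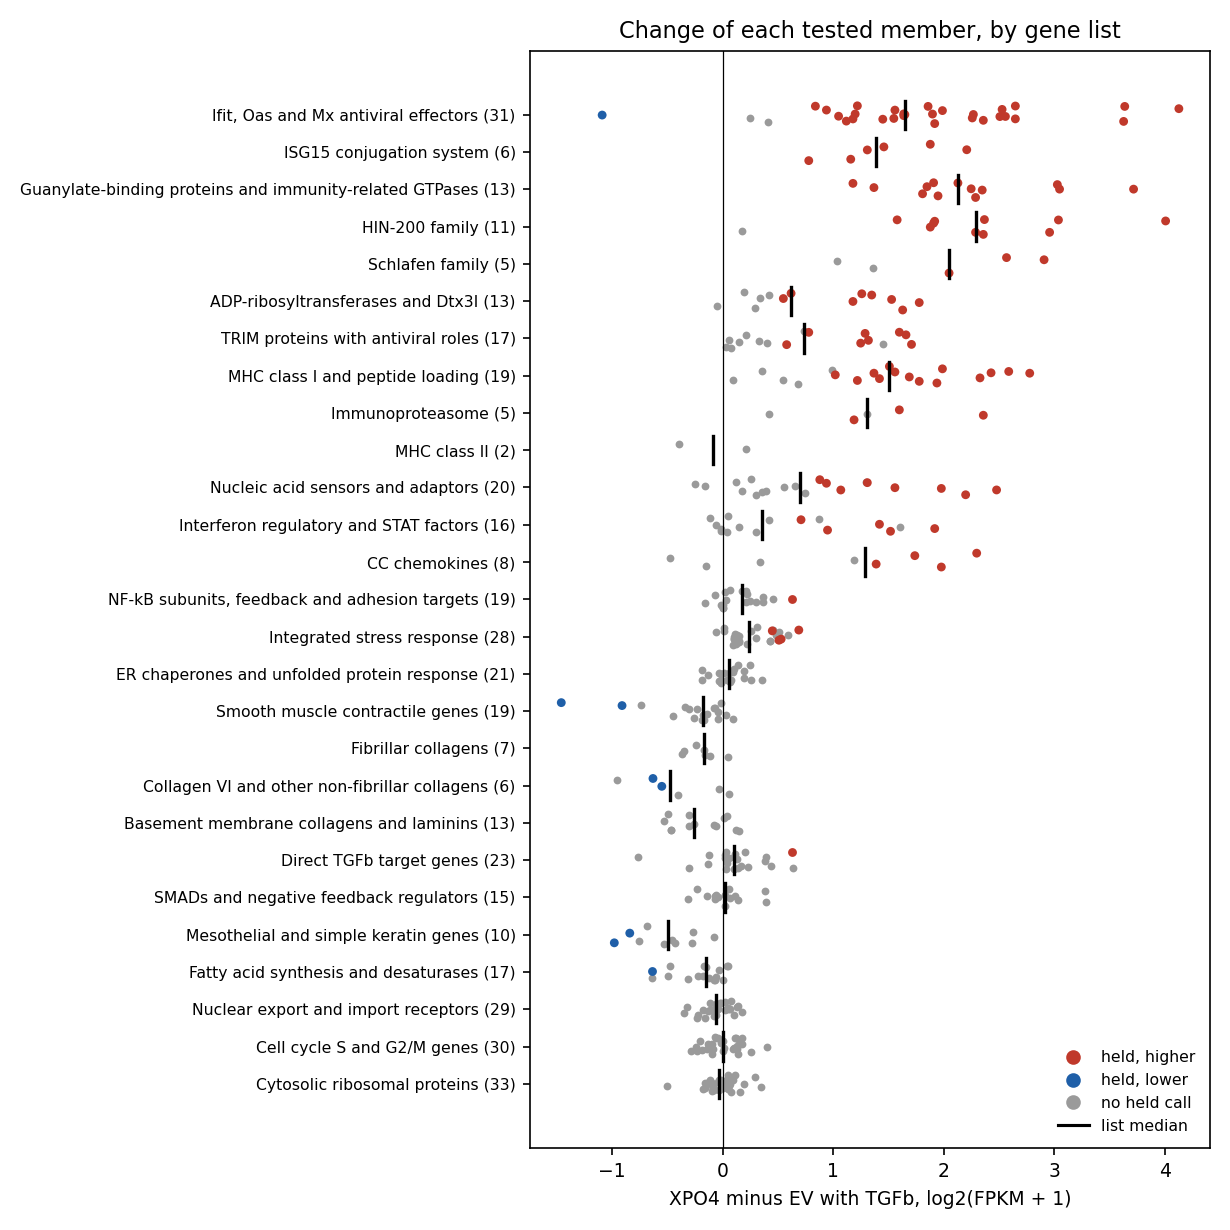
Change of each tested member (XPO4 minus EV with TGFβ, log2(FPKM + 1) scale, horizontal axis) in 27 gene lists (rows, with the number of tested members), red for held rises, blue for held falls and grey for the rest, with the list median as a black bar. All 13 GTPase genes are red, while ribosomal and nuclear transport genes are grey around 0.

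Called genes often stood beside each other. Of 342 genes called higher with a position in GENCODE M21, 132 (38.6%) lay within 100 kb of another gene called higher, beside 8.08% of tested genes; for genes called lower, 16 of 102 (15.7%) lay so, beside 2.75%. The largest run was at chr1:173468485-174031810, where 11 of 11 tested genes were called higher, all of the HIN-200 family or its pseudogenes. At chr11:48861968-49135387, around Irgm1, Tgtp1 and Ifi47, 7 of 9 were called higher. The stretch from H2-D1 to H2-Q7 (7 of 7), the Oas genes (6 of 6) and the Ifit genes (5 of 5) formed further runs. Tandem copies make up most of these runs, and a read from 1 copy may be counted at another.

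Chemokines that attract monocytes and T cells rose with the antiviral genes. Cxcl10 (chr5:92346638-92348889), a ligand of the T-cell receptor CXCR3, had 4650, 5091, 4567 and 5094 FPKM in XPO4 cells, against 1621, 1584, 1606 and 1669 FPKM in EV cells (change 1.58, SE 0.07, adjusted p = 6.02e-07). Cxcl11, the gene of another CXCR3 ligand, is annotated here as a polymorphic pseudogene. It had 4.54, 3.63, 5.09 and 2.76 FPKM in XPO4 cells, against 0.120, 0.216, 0 and 0.103 FPKM in EV cells (adjusted p = 0.000114). Both rose with no overlap, at levels that differ widely between the genes. Of 8 CC chemokines tested, 4 rose. Ccl2, the main monocyte attractant, had 137, 174, 146 and 152.8 FPKM in XPO4 cells, against 49.0, 33.8, 39.3 and 31.0 FPKM in EV cells (change 1.98, SE 0.14, adjusted p = 1.18e-05). Ccl7 averaged 84.7 ± 8.66 FPKM in XPO4 cells and 16.4 ± 2.02 FPKM in EV cells (change 2.30), and Ccl5 averaged 358 ± 47.3 FPKM in XPO4 cells and 135 ± 12.6 FPKM in EV cells (change 1.39). Ccl4 had 4.49, 2.52, 1.61 and 4.31 FPKM in XPO4 cells, against 0.499, 0, 0.438 and 0 FPKM in EV cells (adjusted p = 0.00622). The neutrophil attractant Cxcl1 changed by -0.15 and was not called.

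Of 7 cytokines tested, 3 rose. Il6, an acute-phase cytokine, had 4.797, 2.83, 7.71 and 3.94 FPKM in XPO4 cells, against 0.558, 1.15, 1.42 and 0.669 FPKM in EV cells (change 1.54, SE 0.26, adjusted p = 0.0081). Il15, a growth factor of NK cells, averaged 7.71 ± 0.607 FPKM in XPO4 cells and 3.20 ± 0.744 FPKM in EV cells (change 1.06), and Csf1, the macrophage growth factor, averaged 276 ± 16.6 FPKM in XPO4 cells and 205 ± 9.23 FPKM in EV cells (change 0.42). Of 14 cytokine receptors and binding proteins, only the decoy Il18bp rose (change 1.36, adjusted p = 0.00269). Of 19 NF-kB subunits, feedback and adhesion genes, only Tnfaip3, which encodes the deubiquitinase A20, rose, with a mean of 46.1 ± 3.96 FPKM in XPO4 cells and 29.5 ± 3.35 FPKM in EV cells (change 0.63, adjusted p = 0.00622). Nfkbia changed by 0.37 and Vcam1 by -0.16, and neither was called. Of 10 complement genes tested, C2 and the inhibitor Serping1 rose, by 1.46 and 0.89.

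**Figure D3:**
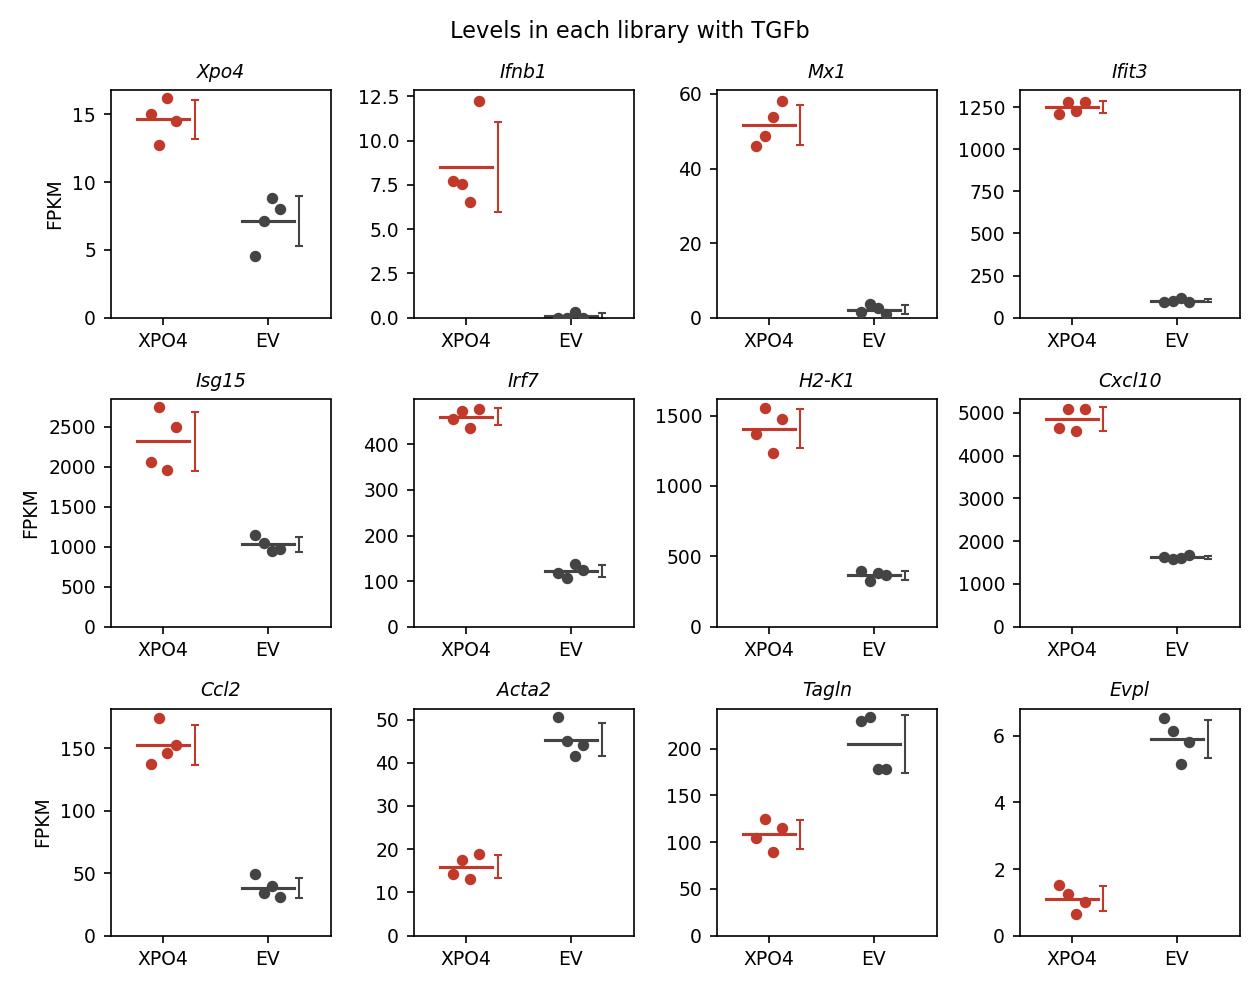
FPKM (vertical axes, each from 0) of 12 genes in the 4 XPO4 libraries (red, left) and the 4 EV libraries (grey, right) with TGFβ; each point is 1 library, the line is the group mean and the bar beside it is ± 1 SD. The groups do not overlap in any panel: Xpo4 and the 8 interferon and chemokine genes are higher in XPO4 cells, and Acta2, Tagln and Evpl are lower.

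Stress genes moved by small amounts beside this. Of 28 genes of the integrated stress response, in which phosphorylated eIF2 raises ATF4 and its targets, 4 rose and none fell (median change 0.24). The small changes mostly went 1 way: 27 were positive and 1 negative. With all libraries, 6 of the 28 were called higher (2.89% of all tested genes), and 13 lay higher without overlap (6.03% of all tested genes). Ddit3 (CHOP) averaged 113 ± 18.5 FPKM in XPO4 cells and 69.2 ± 7.504 FPKM in EV cells (change 0.69, SE 0.12, adjusted p = 0.01). Atf3, Sesn2 and Chac1 changed by 0.51, 0.53 and 0.45, while Asns, an amino acid synthesis target, changed by 0.11 and was not called. Of 21 genes of the ER unfolded protein response and 19 NRF2 targets, 0 were called by limma, with 2 and 1 at an unadjusted p under 0.05. Of 23 p53 targets, Cdkn1a (p21) and Sesn2 rose and Fas fell. Cdkn1a had 410, 443, 417 and 420 FPKM in XPO4 cells, against 293, 282, 276 and 241 FPKM in EV cells (change 0.63, SE 0.08, adjusted p = 0.000709). Fas, the death receptor, had 2.76, 3.32, 3.86 and 2.53 FPKM in XPO4 cells, against 5.81, 6.48, 5.37 and 6.51 FPKM in EV cells (change -0.78, SE 0.14, adjusted p = 0.0117). Mdm2 changed by 0.22 and was not called. Of the 23 changes, 18 were positive and 5 negative (median 0.22). Without overlap, 5 lay higher and 2 lower, beside 6.03% and 4.22% of all tested genes.

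Of 16 cell death genes tested, 3 rose besides the fall of Fas. Mlkl, the pore former of necroptosis, averaged 170 ± 20.2 FPKM in XPO4 cells and 85.4 ± 11.2 FPKM in EV cells (change 0.99, SE 0.11, adjusted p = 0.000486). Ripk3, the kinase upstream of it, changed by -0.06 and was not called. Daxx, a histone chaperone and nuclear-body protein first described as a partner of FAS, had 233, 257, 216 and 279 FPKM in XPO4 cells, against 56.0, 70.8, 54.1 and 61.8 FPKM in EV cells (change 2.01, SE 0.11, adjusted p = 1.9e-06). Of 16 cytosolic heat shock genes only Hspa1b rose, with a mean of 21.9 ± 4.64 FPKM in XPO4 cells and 11.1 ± 0.454 FPKM in EV cells (adjusted p = 0.00622); its near-identical neighbour Hspa1a was under the filter.

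Among the falls were genes of smooth muscle, mesothelium and matrix. Acta2 (chr19:34241090-34255590), which encodes alpha smooth muscle actin, the usual marker of stellate cell activation, had 14.2, 17.4, 13.2 and 18.9 FPKM in XPO4 cells, against 50.7, 45.0, 41.6 and 44.1 FPKM in EV cells (change -1.46, SE 0.12, adjusted p = 4.57e-05). Tagln (chr9:45929619-45936058), the actin-binding protein SM22, had 104, 125, 89.4 and 115 FPKM in XPO4 cells, against 229, 234, 179 and 178 FPKM in EV cells (change -0.91, SE 0.13, adjusted p = 0.00243). These 2 were the falls among 19 contractile genes tested and 0 rose, beside a median change of -0.19. Of the 19 changes, 17 were negative and 2 positive. Without overlap, 5 of the 19 lay lower and 0 higher, beside 4.22% and 6.03% of all tested genes. Vcl changed by -0.34 and was called but not held, Myl9 changed by -0.74 with overlapping libraries, and Srf, the factor behind many contractile genes, changed by 0.03. The same pair were the held calls among 9 activated stellate cell markers tested.

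Evpl (chr11:116220559-116238077), which encodes envoplakin, a linker of keratin filaments to desmosomes, had 1.53, 1.24, 0.655 and 1.005 FPKM in XPO4 cells, against 6.53, 6.14, 5.17 and 5.82 FPKM in EV cells (change -1.73, SE 0.17, adjusted p = 0.000143). It was the largest fall of a protein-coding gene and the only one of 7 desmosomal genes tested to fall. Of 10 mesothelial and simple keratin genes tested, the uroplakins Upk1b and Upk3b fell, and all 10 had negative changes (median -0.50). Upk3b, a mesothelial marker, had 42.6, 48.1, 39.8 and 45.3 FPKM in XPO4 cells, against 78.0, 78.0, 75.4 and 86.3 FPKM in EV cells (change -0.84, SE 0.08, adjusted p = 0.000172). Upk1b averaged 20.2 ± 1.84 FPKM in XPO4 cells and 40.7 ± 4.01 FPKM in EV cells (change -0.98, SE 0.10, adjusted p = 0.000227). Both uroplakins were lower by about the same amount. The mesothelial factor Wt1 and mesothelin (Msln) changed by -0.46 and -0.28 and were not called.

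Matrix genes had held falls in a few members only, while more members lay lower without a held call. Of 14 fibronectin and matricellular genes tested, 2 were called lower and 0 held, with 11 negative changes and 3 positive. Without overlap, 5 of the 14 lay lower and 1 higher. Of 13 basement membrane genes, 9 changes were negative and 4 positive, and 5 lay lower without overlap and 0 higher. Over all tested genes the shares without overlap were 4.22% lower and 6.03% higher. Col6a1 and Col6a2, neighbouring genes on chromosome 10 for 2 chains of the microfibrillar collagen VI, fell together. Col6a1 had 37.5, 37.3, 38 and 42.6 FPKM in XPO4 cells, against 58.2, 49.9, 58.2 and 63.9 FPKM in EV cells (change -0.55, SE 0.09, adjusted p = 0.00717). Col6a2 had 31.8, 30.1, 29.8 and 36.7 FPKM in XPO4 cells, against 48.4, 49.0, 48.0 and 55.7 FPKM in EV cells (change -0.63, SE 0.09, adjusted p = 0.00301). The main fibrous collagens were not called. Col1a1 averaged 139 ± 8.39 FPKM in XPO4 cells and 164.8 ± 7.94 FPKM in EV cells (change -0.24, SE 0.07, adjusted p = 0.132), with no overlap, a pattern shared by 4.22% of tested genes in this direction, and Col1a2 and Col3a1 changed by -0.16 and -0.35 with overlap (adjusted p = 0.637 and 0.316). Of 13 basement membrane genes, Col4a1, Col4a2 and Hspg2 were called lower with all 8 libraries, at -0.47, -0.49 and -0.47, and none was held. Fn1, fibronectin, averaged 89.9 ± 16.9 FPKM in XPO4 cells and 133 ± 17.0 FPKM in EV cells without overlap, and its change of -0.57 missed the threshold (adjusted p = 0.0753). Timp1, the collagenase inhibitor, averaged 17.2 ± 5.10 FPKM in XPO4 cells and 11.4 ± 5.24 FPKM in EV cells, with overlap (adjusted p = 0.413). Among 12 proteoglycan genes, the heparan sulphate carrier Gpc1 fell (change -0.57) and Sdc3 rose, with 7.93, 6.64, 5.75 and 6.42 FPKM in XPO4 cells, against 0.301, 1.23, 0.499 and 0.658 FPKM in EV cells (change 2.22, SE 0.19, adjusted p = 6.19e-05).

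TGFβ pathway genes were mostly not called. Of 23 direct TGFβ targets tested, only Cdkn1a, already given among the p53 targets, rose and none fell. With all libraries, 3 of the 23 were called higher, beside 2.89% of all tested genes, and 0 lower. Positive changes numbered 19 and negative ones 4 (median 0.10), and 6 of the 23 lay higher without overlap. Of 18 ligand, receptor and latent-binding genes and of 15 SMADs and feedback regulators, 1 each was called higher and none held a call. Smad7, the inhibitory SMAD that TGFβ induces, averaged 21.5 ± 2.32 FPKM in XPO4 cells and 16.3 ± 1.67 FPKM in EV cells (change 0.38, SE 0.11, adjusted p = 0.12). The libraries of the XPO4 and EV groups did not overlap for Smad7, a pattern shared by 6.03% of tested genes in this direction. Ccn2 (deposited as Ctgf), another target, averaged 1220 ± 46.2 FPKM in XPO4 cells and 1133 ± 67.1 FPKM in EV cells, and Tgfb1 averaged 28.5 ± 2.37 FPKM in XPO4 cells and 29.6 ± 3.30 FPKM in EV cells; both overlapped (adjusted p = 0.569 and 0.901).

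**Figure D4:**
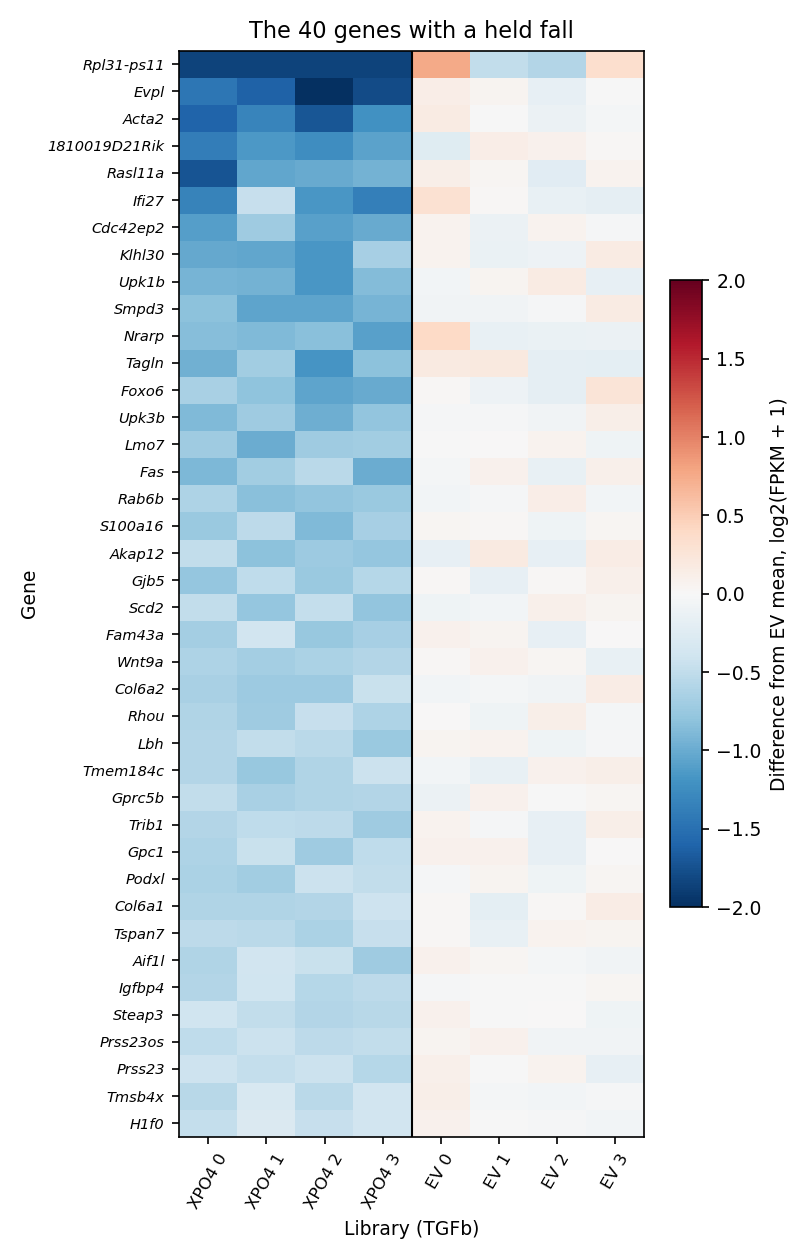
The 40 genes with a held fall (rows, largest fall at the top) in the 4 XPO4 and 4 EV libraries with TGFβ (columns); colour is the difference from the gene's EV mean on the log2(FPKM + 1) scale, clipped at -2 and 2. All XPO4 cells of the map are blue, and Rpl31-ps11 and Ifi27 have the widest spread within a group.

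Several single genes of other lists passed. Egr1, an immediate early transcription factor, had 73.9, 62.4, 73.9 and 71.8 FPKM in XPO4 cells, against 39.7, 33.5, 39.5 and 38.03 FPKM in EV cells (change 0.89, SE 0.09, adjusted p = 0.000188), the only rise among 22 immediate early genes. Foxf1, a forkhead factor of visceral mesenchyme, averaged 14.5 ± 2.18 FPKM in XPO4 cells and 6.41 ± 1.38 FPKM in EV cells (change 1.07), the only rise among 17 mesenchymal transcription factors. Serpinb9, the granzyme B inhibitor, averaged 40.1 ± 6.19 FPKM in XPO4 cells and 19.7 ± 3.13 FPKM in EV cells (change 0.99). These 3 genes belong to different programmes and no relation between them was tested. Gch1, the first enzyme of tetrahydrobiopterin synthesis, changed by 0.89, and Apol9b by 0.51, 2 rises among 8 interferon-induced metabolic genes; Apol9b was deposited as Apol9a and shares reads with its paralog.

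Igfbp4, a binding protein that withholds IGF from its receptor, had 394, 451, 401 and 416 FPKM in XPO4 cells, against 587, 594, 593 and 609 FPKM in EV cells (change -0.52, SE 0.07, adjusted p = 0.00105). Scd2, a desaturase that makes monounsaturated fatty acids, averaged 318 ± 37.7 FPKM in XPO4 cells and 494 ± 29.5 FPKM in EV cells (change -0.64, SE 0.09, adjusted p = 0.00286). Smpd3, neutral sphingomyelinase, averaged 11 ± 0.906 FPKM in XPO4 cells and 22.4 ± 1.81 FPKM in EV cells (change -0.96, SE 0.10, adjusted p = 0.000184). Each was the only held fall of its list, among 10 IGF genes, 17 fatty acid genes and 19 sphingolipid genes. Wnt9a, a Wnt ligand, the forkhead gene Foxo6 and the calcium-binding S100a16 fell likewise, by 0.63, 0.88 and 0.71, out of 15, 4 and 9 tested members. Among the largest falls outside the lists, Cdc42ep2, an effector of the actin regulator CDC42, had 20.6, 27.3, 21.0 and 22.2 FPKM in XPO4 cells, against 47.7, 41.7, 48.0 and 44.9 FPKM in EV cells (change -0.98, SE 0.10, adjusted p = 0.000291). Rasl11a and Nrarp, a RAS-like protein and a Notch feedback inhibitor, fell by 1.17 and 0.92, and Klhl30 and Lmo7 fell by 0.98 and 0.78. The processed pseudogene Rpl31-ps11, also called lower, was listed at 0 in all 4 XPO4 libraries and at 5.11, 1.58, 1.41 and 3.56 FPKM in EV cells (adjusted p = 0.00653); as a near-copy of Rpl31 its value is uncertain.

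Large housekeeping groups were not called. None of 33 cytosolic ribosomal protein genes, 25 translation initiation factors, 24 nuclear oxidative phosphorylation genes, 25 glycolysis and hypoxia genes and 13 mitochondrial messenger RNAs was called by limma, with medians of -0.03, -0.01, 0.02, 0.06 and -0.26 and with 1, 0, 1, 3 and 3 members at an unadjusted p under 0.05. Of 30 genes of S and G2/M phase, 1 was called with all libraries and 0 held (median -0.002). In all, 36 of the 76 lists had no held call.

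For most held calls, the XPO4 effect with TGFβ was called in the same direction without it, in a comparison that shares no library. Of the 258 rises with TGFβ, 251 were tested at baseline. Called higher there were 220 of the 258 (85.3%), beside 2.85% of all genes at baseline. Leaving out 1 baseline library gave 195 to 215. Of the 40 falls, 30 were called lower at baseline (75.0%, beside 0.864%), and leaving out 1 library gave 21 to 29. Over all calls with TGFβ, held or not, agreement was lower for the falling direction. Of the 346 genes called higher, 256 (74.0%) were also called higher at baseline. Of the 102 called lower, 48 (47.1%) were also called lower there. No gene called with TGFβ was called in the opposite direction at baseline. Across 11746 genes tested in both, the 2 changes had a Pearson r of 0.66 and a Spearman rho of 0.52, given as a description, since genes are not independent and all came from the same cell line and construct.

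No single gene passed the test of the difference between the effects with and without TGFβ. Among interferon-list genes tested in both, 136 (81.9%) had the larger change with TGFβ, beside 50.8% of all genes; the median difference was 0.14, and leaving out any 1 of the 15 libraries gave shares of 75.4% to 82.6%. The lists were chosen with results of these data known, so the share is a description with no test. The interaction of XPO4 and TGFβ was called by limma for 0 of 11951 genes, with 344 (2.88%) at an unadjusted p under 0.05; 1 gene was called without EV library 1 with TGFβ and 1 without EV library 2 with TGFβ. Cxcl10 had the smallest p: its XPO4 effect was 1.58 with TGFβ and 1.08 at baseline, a difference of 0.50 (unadjusted p = 2.08e-05, adjusted p = 0.248). Its means at baseline were 4337 FPKM in XPO4 cells and 2045 FPKM in EV cells. Trafd1, a zinc-finger inhibitor of innate signalling, changed by 1.57 with TGFβ and 1.05 at baseline (adjusted p of the difference 0.373). Among the falls, Cdc42ep2 changed by -0.98 with TGFβ and -0.38 at baseline, and Trib1, a pseudokinase, by -0.58 and -0.17 (adjusted p of the difference 0.373 and 1). The unnamed transcript 2500004C02Rik changed by 1.34 with TGFβ and -0.25 at baseline, and Rpl31-ps11 had fitted changes of opposite sign, but neither difference passed (adjusted p = 0.373 for both).

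**Figure D5:**
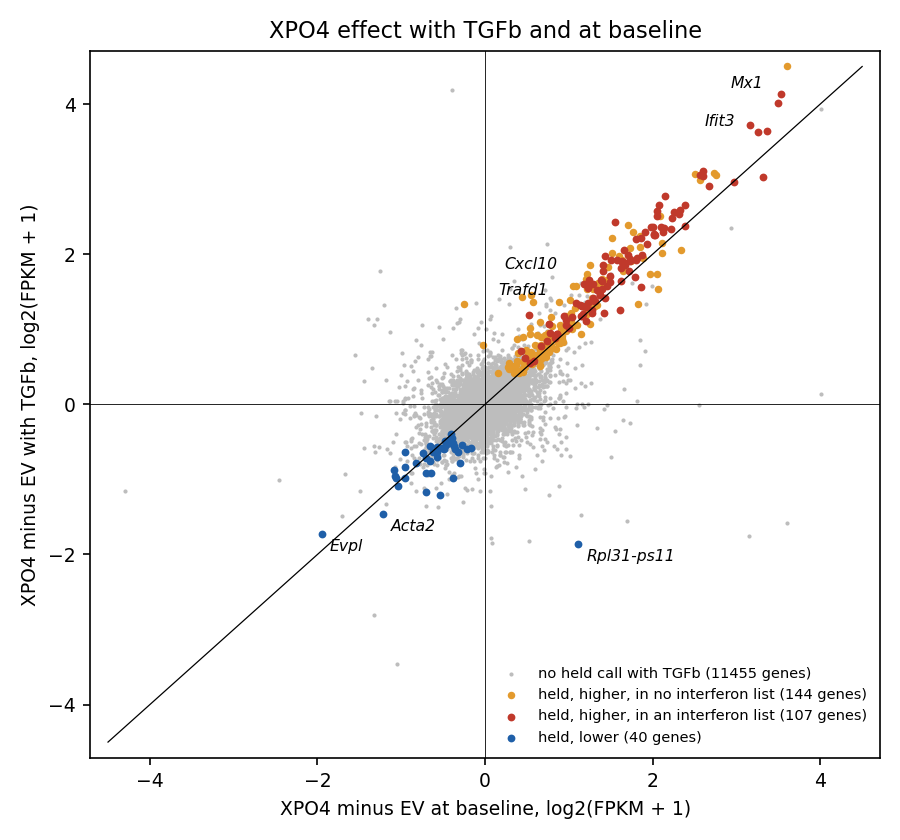
XPO4 effect with TGFβ (vertical axis) against XPO4 effect at baseline (horizontal axis), both as XPO4 minus EV on the log2(FPKM + 1) scale, for the 11746 genes tested in both; colours mark held calls with TGFβ and the diagonal marks equal effects. Most red and orange points lie slightly above the diagonal, where choosing genes by their change on the vertical axis tends to place them, and Rpl31-ps11 is the held fall on the other side of 0 at baseline.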

How the data were processed

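Poly(A) RNA of JS1 cells was sequenced from directional (dUTP) libraries, per the labels' protocols. The authors deposited FPKM values per gene in 1 table for TGFβ and 1 for baseline. CASAVA 1.8.2, STAR 2.7.2b and the builds mm10 and GRCh38 appear in the submitters' processing notes with no role; the program that gave FPKM and any use of strand are not given in the sources used here. Depth is unknown, so no counting intervals are given. Of 38277 genes, 36426 matched GENCODE M21 (GRCm38), which gave symbols and coordinates. Genes that averaged 1 FPKM or more across the 8 libraries were tested with limma 3.58.1 (R 4.3.3; intensity trend, Benjamini-Hochberg adjustment over all tested genes) on log2(FPKM + 1), with no replicate block. The interaction was fitted over all 15 libraries. The procedure was tested on simulated data. Python 3.11.15, pandas 2.3.3, scipy 1.17.1 and matplotlib 3.10.9 did the rest.

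The comparison, the 76 gene lists and the tests were chosen with earlier results of these data known. Named genes were Xpo4, the 15 largest held rises and the 15 largest held falls with an established symbol and no overlap, up to 4 held members with the smallest p in each list, a short set always given (such as Acta2 and Col1a1), and the 3 held genes per direction with the smallest interaction p; other members serve as examples and were picked with their values seen. A few named genes and members are not reported here. Alternatives covered the pseudocount, the filter, scaling, blocks, array weights, no trend, a joint fit and leaving out each library.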

Additional observations from a re-analysis of the deposited data

Results flagged for a closer look

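Among 232 groups of 4 libraries (named genes, in each group), 17 had 1 library set apart from the other 3 by a gap that took more of the group's range than Dixon's critical value for 4 values allows; chance flags about 1 in 20 groups. Among XPO4 libraries, library 0 was low for Rasl11a (1.96 FPKM) and Ccl7 (71.8 FPKM). XPO4 library 1 was high for Ifi27 (27.5 FPKM) and Mlkl (200 FPKM) and low for Lmo7 (3.95 FPKM). XPO4 library 2 was high for Serpinb9 (49.3 FPKM), and XPO4 library 3 was low for Parp11 (31.0 FPKM) and Ccn2 (1152 FPKM) and high for Col6a1 (42.6 FPKM). Among EV libraries, library 0 was high for Nrarp (7.07 FPKM) and Il15 (4.31 FPKM), and library 1 was low for Ly6a (13.7 FPKM) and Ccl5 (117 FPKM). EV library 2 was high for Ifnb1 (0.334 FPKM), Ccl7 (19.4 FPKM) and Serpinb9 (24.4 FPKM), and EV library 3 was high for Col6a2 (55.7 FPKM). Among these genes, the XPO4 and EV libraries overlapped for Ccn2 alone.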

How the results depend on the processing

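Across the alternatives that keep all 8 libraries, 305 to 448 genes were called higher and 86 to 231 lower; leaving out 1 library gave 282 to 332 higher and 53 to 91 lower. Calls lower came to 0.852% of the 11976 genes, to 1.29% after rescaling to equal totals, to 1.93% when all 15 libraries shared 1 fit, and to 0.443% to 0.76% with 1 library left out. Of the 298 held calls, 294 were called with the replicate number as a block, 297 with no filter, 259 of the 259 still tested at a mean of at least 5 FPKM, and 298 under every other setting, and none changed sign. The replicate block gave 328 genes higher and 86 lower; Fas (-0.78, adjusted p = 0.0555) and Trib1 (-0.58, adjusted p = 0.0523) were not called under it. Same-numbered libraries had correlations of deviations of -0.14, 0.06, 0.24 and -0.01, and pairs with different numbers had -0.20 to 0.25. These values show no clear pairing by number but cannot exclude it, and pairing was not tested. In the joint fit Fn1 (-0.57, adjusted p = 0.0118) and Smad7 (0.38, adjusted p = 0.0323) passed the threshold. The interaction gave 1 call after rescaling, and 0 to 1 when 1 library was left out (1 without EV library 1 with TGFβ and 1 without EV library 2 with TGFβ). Changes near 0 turned sign: Tgfb1 was 0.01 with array weights and ranged from -0.10 to 0.02 with 1 library left out, above 0 without EV library 0. Eif5a was 0.01 with array weights and ranged from -0.06 to 0.04, at or above 0 without XPO4 libraries 0 and 2 and EV libraries 0 and 1. The cause of these shifts was not tested. The files hold no counts, so how depth limits low genes cannot be given.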

Other observations

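Of the held calls, 122 rises and 24 falls were in none of the 76 lists; the genes here were chosen after their values were seen. They stand for themselves and not for a gene group. Pml, the scaffold of PML nuclear bodies, averaged 147 ± 7.63 FPKM in XPO4 cells and 70.9 ± 7.499 FPKM in EV cells (change 1.05), and Sp100, another protein of these bodies, averaged 59.4 ± 4.26 FPKM in XPO4 cells and 18.3 ± 2.47 FPKM in EV cells (change 1.65). The related Sp110 and Sp140, beside Sp100 on chromosome 1, changed by 1.83 and 1.06. Ly6e, a surface protein that restricts viral entry, averaged 570 ± 46.5 FPKM in XPO4 cells and 151 ± 10.9 FPKM in EV cells (change 1.91). Cd274, which encodes the T-cell inhibitory ligand PD-L1, averaged 13.8 ± 2.33 FPKM in XPO4 cells and 2.80 ± 0.523 FPKM in EV cells (change 1.95).

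Grn, which encodes progranulin, averaged 490 ± 48.7 FPKM in XPO4 cells and 259 ± 20.9 FPKM in EV cells (change 0.91), and Npc2, a cholesterol carrier, averaged 221 ± 13.5 FPKM in XPO4 cells and 128 ± 9.95 FPKM in EV cells (change 0.79). Of the 11 genes tested in the list of cathepsins and their inhibitors, 0 were called by limma and 0 had an unadjusted p under 0.05 (median change 0.04). Among the falls, Tmsb4x, which encodes the actin-binding thymosin beta 4, averaged 2035 ± 165.3 FPKM in XPO4 cells and 2783 ± 153.6 FPKM in EV cells (change -0.45). The kinase scaffold Akap12 and the surface sialomucin Podxl changed by -0.70 and -0.56. The mitochondrial mt-Atp8 was listed at 0 in all XPO4 libraries and at 43.9, 0, 52.98 and 0 FPKM in EV libraries (adjusted p = 0.365).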
